A study of Mus musculus with 4 samples.

Results

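The genes described here encode the subunits of respiratory complexes III and IV and of the ATP synthase, complex V, split by the genome that carries them. They were chosen by name alone: every row of the expression table whose symbol begins with mt-Cytb, mt-Co, mt-Atp, Uqcr, Cox4 to Cox8 or Atp5. This gave 51 of the 22266 genes listed. Of these, 6 are mitochondrially encoded, 1 in complex III, 3 in complex IV and 2 in complex V. The other 45 are nuclear, with 8 in complex III, 19 in complex IV and 18 in complex V. A pseudogene, Cox5b-ps, and a second Atp5o row that was 0 in all 4 libraries were set aside, which left 43 nuclear subunit rows.

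Poly(A) RNA was sequenced from 4 libraries of a mouse embryonic stem cell line, derived from the female line PGK12.1, whose Cbx2 alleles are both floxed and fused to a HaloTag. The 2 EtOH libraries, given ethanol, are the day 0 control, with the genotype labelled wild type. The 2 OHT libraries came from cells given 1.0 µM 4-hydroxytamoxifen for 48 hours and are labelled day 2 knockout. All 4 share the floxed, tagged alleles, culture on gelatin with LIF and the label batch 2, and the labels name neither the recombinase nor a group that received 4-hydroxytamoxifen without floxed alleles. The drug and the loss of Cbx2 therefore cannot be told apart, and neither can day 0 and day 2. The labels do not say that replicates were separate cultures, so p-values measure the spread between these libraries, which may be technical.

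Complex III passes electrons from ubiquinol to cytochrome c, complex IV passes them on to oxygen, and both pump protons across the inner mitochondrial membrane. Complex V lets the protons flow back and makes ATP. Each is assembled from a few membrane proteins made inside the mitochondrion from mitochondrial DNA and many proteins made in the cytosol from nuclear genes and imported. Mouse embryonic stem cells express both sets.

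The mitochondrial genes differ from the nuclear ones in structure, which matters for how their RNA is captured and counted. The mt-Atp8 and mt-Atp6 reading frames overlap by 43 bases and lie on a shared transcript. The overlap is shown because its reads belong to both genes. It spans chrM:7927-7969 on the plus strand of GRCm38 and is in capitals within chrM:7918-7978, which is all coding sequence:
mt-Atp8 and mt-Atp6 overlap: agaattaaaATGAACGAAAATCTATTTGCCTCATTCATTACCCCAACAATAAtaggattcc
The 3′ ends of the genes are shown because some mitochondrial messages acquire their stop codon only with the poly(A) tail, the feature by which these libraries were selected. Capitals mark the stop codon, or the single T that the DNA encodes of it:
mt-Co1: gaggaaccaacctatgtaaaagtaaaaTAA
mt-Co2: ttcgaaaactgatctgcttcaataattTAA
mt-Atp6: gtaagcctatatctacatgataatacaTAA
mt-Co3: tacgtctccatttattgatgaggatctT
mt-Cytb: gaagacaaaatactaaaattatatccaT
The windows end at chrM:6872 for mt-Co1, chrM:7696 for mt-Co2, chrM:8607 for mt-Atp6, chrM:9390 for mt-Co3 and chrM:15288 for mt-Cytb, all on the plus strand. In mt-Co3 and mt-Cytb the DNA supplies only the T. The last A of the mt-Atp6 stop codon, at chrM:8607, is also the first base of mt-Co3. The coordinates do not show which of the 2 messages keeps it. Each of the 6 genes is an uninterrupted coding exon.

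Levels are in TPM, a length-corrected share of the transcripts of a library that sums to 1000000 over all genes, so a lower share for some genes raises the share of others. Tests were made with limma on log2(TPM + 1) over the 12029 genes that averaged 1 TPM or more, which included all 6 mitochondrial and 40 of the 43 nuclear subunit genes. Cbx2 read 2.29 and 2.71 TPM in the EtOH libraries and 0.749 and 1.14 TPM in the OHT libraries, with no overlap (log2 fold change -0.85, SE 0.19, adjusted p = 0.265). Across the table, 5 genes passed an adjusted p of 0.05 (0.0416% of those tested), and none of the 46 subunit genes tested was among them. The replicate libraries were not equally close: the log2 difference between replicates had an SD over genes of 0.178 in EtOH and 0.348 in OHT. This difference ran with log2 transcript length over 12016 genes, with Pearson r = -0.54 in OHT and -0.27 in EtOH. Within each group the genes share the same 2 libraries. Of the embryonic stem cell markers, 8 of 8 were present, and their summed level was 9564 and 9480 TPM in EtOH and 12420 and 11110 TPM in OHT. The highest was Dppa5a, at up to 7089 TPM, so the sum does not stand for each marker. Pou5f1 and Nanog read higher in both OHT libraries, while Sox2 read 462 and 461 TPM in EtOH and 439 and 466 TPM in OHT. Fibroblast markers summed to 23.9 and 24.9 TPM in EtOH and 30.5 and 37.9 TPM in OHT. Fbln1 was the highest at up to 25.7 TPM, with 6 of 8 under 1 TPM in every library and Postn at 0. Neuroectoderm markers summed to 219 and 216 TPM in EtOH and 180 and 190 TPM in OHT, nearly all of it Tubb3, and primitive endoderm markers to between 4.63 and 5.60 TPM. The part of these marker differences in the results below was not tested.

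The mitochondrial subunit genes read lower in both OHT libraries than in both EtOH libraries in 6 of 6 cases, against 19.4% of all genes tested. Of these, 5 had an unadjusted p under 0.05, against 4.46% of all genes on the lower side, and the 6 have a common source, since their RNAs are cut from the same long transcript. Their median log2 fold change was -0.56, against 0.02 over all genes tested and 0.06 over the 40 nuclear subunit genes. None of the 6 passed once p-values were adjusted over all genes, so each is given by its levels. mt-Atp8 alone turned direction in a setting tried, when trends over length and GC content were removed (log2 fold change 0.29). In bulk RNA, fewer cells of a kind rich in mitochondrial RNA and less of that RNA per cell cannot be told apart.

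Complex III has mt-Cytb, cytochrome b, as its mitochondrially encoded member (chrM:14145-15288). It read 2865 and 2974 TPM in the EtOH libraries and 1739 and 2229 TPM in the OHT libraries. Both OHT values lay below both controls, with OHT replicate 1 the lower (log2 fold change -0.57, SE 0.13, adjusted p = 0.267 by limma).

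In complex IV, mt-Co1 encodes the catalytic subunit that holds the haem and copper centre where oxygen is reduced (chrM:5328-6872). Its level was 4458 and 4543 TPM in EtOH and 2594 and 3375 TPM in OHT, so the groups were apart and OHT replicate 1 was again the lowest (log2 fold change -0.60, SE 0.13, adjusted p = 0.265). mt-Co2 carries the copper centre that takes electrons from cytochrome c (chrM:7013-7696). It read 7295 and 7505 TPM in EtOH and 5121 and 4976 TPM in OHT. Here the OHT pair was close together, and mt-Co2 had the smallest p of all 46 subunit genes tested (log2 fold change -0.55, SE 0.08, adjusted p = 0.110). mt-Co3 is the membrane subunit beside the catalytic core (chrM:8607-9390). Its values were 3976 and 4046 TPM in EtOH and 3493 and 3673 TPM in OHT. The groups did not overlap, but the distance between them was the smallest of the 6 mitochondrial genes (log2 fold change -0.16, SE 0.08, adjusted p = 0.548).

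In complex V, mt-Atp6 encodes subunit a, which with the ring of c subunits forms the proton path (chrM:7927-8607). It read 6498 and 6626 TPM in EtOH and 4643 and 4934 TPM in OHT (log2 fold change -0.46, SE 0.08, adjusted p = 0.205). Its neighbour mt-Atp8 encodes a small membrane subunit and is the shortest of the set at 204 bases (chrM:7766-7969). Its levels were 6335 and 6420 TPM in EtOH and 3582 and 4936 TPM in OHT, below the controls in both libraries and widely spread between them (log2 fold change -0.60, SE 0.15, adjusted p = 0.296). The 2 genes share a transcript and the overlap printed above, yet the ratio of mt-Atp8 to mt-Atp6 was 0.975 and 0.969 in EtOH and 0.771 and 1.00 in OHT. The ratio left the control range downward in the first OHT library and upward in the second.

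**Figure D1:**
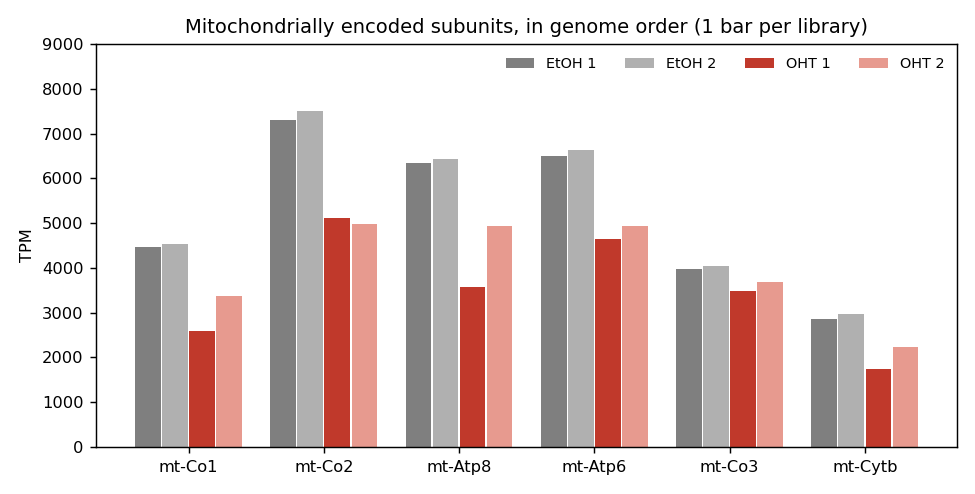
TPM of the 6 mitochondrially encoded subunit genes, with a bar for each of the 4 libraries. Both OHT bars are lower than both EtOH bars for every gene, nearest for mt-Co3 (3493 and 3673 against 3976 and 4046 TPM) and most widely spread in OHT for mt-Atp8 (3582 and 4936 TPM).

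The mitochondrial members did not keep their proportions. The ratio of mt-Co1 to mt-Co3 was 1.12 in both EtOH libraries and 0.743 and 0.919 in the OHT libraries. That of mt-Co2 to mt-Co3 was 1.83 and 1.85 in EtOH and 1.47 and 1.35 in OHT, and that of mt-Cytb to mt-Co3 was 0.721 and 0.735 in EtOH and 0.498 and 0.607 in OHT. All these ratios to mt-Co3 were lower in both OHT libraries, which shows unequal differences among the 6 and not that mt-Co3 was constant. mt-Co1 to mt-Co2 showed no such separation, at 0.611 and 0.605 in EtOH against 0.507 and 0.678 in OHT. Nuclear copies of mitochondrial DNA have 95% identity or more to mt-Co1, mt-Co2, mt-Co3 or mt-Atp6 in 5 annotated genes, such as Gm28661 and Gm10925 on chromosome 1. None of these has a row of its own in the table, and the sources used here do not give how reads shared with them were assigned. Nuclear subunit genes have such copies too, among them Atp5l, Atp5h and Uqcrb. In all, 14 of the 51 members had an annotated copy of 95% identity or more over at least 50% of the transcript. The 14 include the set-aside pseudogene Cox5b-ps, whose match is Cox5b itself.

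Of the 8 nuclear subunit genes of complex III, none read lower in both OHT libraries, and 6 had overlapping groups. The most abundant was Uqcr10, a small subunit near the membrane, at 645 and 613 TPM in EtOH and 731 and 605 TPM in OHT. Its OHT libraries lay on either side of the controls, as did those of 5 of the 8 genes of the complex. Uqcrb, which contacts cytochrome b, read 498 and 500 TPM in EtOH and 544 and 493 TPM in OHT. Uqcrh, the acidic hinge protein at the cytochrome c side, read 447 and 439 TPM in EtOH and 514 and 400 TPM in OHT. Uqcr11, another small subunit, read 404 and 382 TPM in EtOH and 451 and 383 TPM in OHT. In these 3 genes OHT replicate 1 was the highest library, and OHT replicate 2 was the lowest in Uqcrb and Uqcrh and within the control range in Uqcr11.

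Of the larger proteins of complex III, Uqcrc1 and Uqcrc2 form the core facing the matrix and Uqcrfs1 is the Rieske iron-sulfur protein that takes electrons from ubiquinol. Uqcrc1 read 313 and 309 TPM in EtOH and 315 and 324 TPM in OHT, both above the controls by little (log2 fold change 0.04, SE 0.08; -0.032 once length and GC trends were taken out). Uqcrc2 read 145 and 156 TPM in EtOH and 137 and 158 TPM in OHT. Uqcrfs1 was at 166 TPM in both EtOH libraries and at 174 and 156 TPM in OHT. The control range lay between the OHT values in both of these genes. Uqcrq, a small subunit bound to cytochrome b, was the furthest from no difference, at 366 and 364 TPM in EtOH and 493 and 383 TPM in OHT (log2 fold change 0.25, SE 0.13, adjusted p = 0.576). The 8 genes had a median log2 fold change of 0.05, and 2 of them, Uqcrc1 and Uqcrq, read above both controls in both OHT libraries, against 23.1% of all genes.

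Among the nuclear genes of complex IV, the 4 most abundant form part of the shell around the catalytic core in nearly all tissues. Cox4i1 read 1375 and 1330 TPM in EtOH and 1594 and 1268 TPM in OHT. Cox7c read 1080 and 1067 TPM in EtOH and 1321 and 1005 TPM in OHT. Cox5a read 979 and 954 TPM in EtOH and 1155 and 894 TPM in OHT. Each of these 3 had OHT replicate 1 above both controls and OHT replicate 2 below both, and Cox6c, at 703 and 655 TPM in EtOH and 729 and 625 TPM in OHT, had the same order.

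Genes of complex IV that read higher in both OHT libraries were Cox5b, Cox6b1, Cox6b2, Cox7b, Cox8a and Cox8c, 6 of the 15 tested, against 23.1% of all genes. Cox5b, the zinc-binding matrix subunit, was at 282 and 269 TPM in EtOH and 344 and 307 TPM in OHT (log2 fold change 0.24, SE 0.10, adjusted p = 0.480). Cox6b1, which faces the intermembrane space, was at 453 and 471 TPM in EtOH and 573 and 508 TPM in OHT (log2 fold change 0.22, SE 0.10, adjusted p = 0.496). Its testis isoform Cox6b2 was at 60.1 and 53.7 TPM in EtOH and 76.5 and 73.4 TPM in OHT, and it was the only nuclear subunit gene of the 40 with an unadjusted limma p under 0.05 (log2 fold change 0.39, SE 0.12, adjusted p = 0.348), where 6.02% of all genes had one on the higher side. Cox7b read 517 and 521 TPM in EtOH and 603 and 543 TPM in OHT. Cox8a read 558 and 537 TPM in EtOH and 612 and 586 TPM in OHT. In none of the 6 did the difference pass over all genes tested.

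Complex IV has isoforms named for the tissue where they are abundant, and several were read at low levels in these cells. Cox4i2, the lung isoform, read 0.611 and 0.796 TPM in EtOH and 0.792 and 1.17 TPM in OHT, and was not tested because its mean was under 1 TPM. Cox6a2, of heart and muscle, read 0.115 and 0.129 TPM in EtOH and 0.179 and 0.329 TPM in OHT, and Cox8b, likewise of heart and muscle, was listed at 0 in all 4 libraries. Neither was tested. Cox6a1, the widely expressed partner of Cox6a2, stood at 478 and 471 TPM in EtOH and 606 and 471 TPM in OHT. The muscle isoform Cox7a1 was present, at 25.6 and 27.8 TPM in EtOH and 25.9 and 20.9 TPM in OHT (log2 fold change -0.19, SE 0.16). Its partner Cox7a2 read 273 and 274 TPM in EtOH and 287 and 225 TPM in OHT. Cox7a1 made up 8.59% and 9.19% of the sum of the 2 genes in EtOH and 8.26% and 8.47% in OHT.

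The related Cox7a2l, which joins complexes III and IV into supercomplexes, read 79.9 and 77.4 TPM in EtOH and 90.6 and 71.4 TPM in OHT, on either side of the controls. Cox7b2, of testis, read 4.18 and 4.70 TPM in EtOH and 3.5 and 4.48 TPM in OHT. Cox8c, also of testis, read 1.21 and 1.13 TPM in EtOH and 1.32 and 1.52 TPM in OHT. Both stood far below their widely expressed partners Cox7b and Cox8a in every library. Cox6b2 was the isoform with the largest share, 11.7% and 10.2% of the sum with Cox6b1 in EtOH and 11.8% and 12.6% in OHT. Markers of striated muscle summed to between 6.10 and 7.59 TPM, and of 4 male germ cell markers 3, Prm1, Prm2 and Tnp1, were listed at 0 in every library.

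In complex V, the catalytic head and its shaft are nuclear-encoded. Atp5b, the beta subunit with the catalytic sites, read 1679 and 1694 TPM in EtOH and 1637 and 1821 TPM in OHT. Its partner Atp5a1, the alpha subunit, read 716 and 719 TPM in EtOH and 671 and 724 TPM in OHT. In both, OHT replicate 1 was the lowest library and OHT replicate 2 the highest, the reverse of the order in 34 of the 40 nuclear genes, which were higher in OHT replicate 1. Atp5c1, the gamma subunit that turns within the head, read 463 and 460 TPM in EtOH and 416 and 396 TPM in OHT. It had the lowest p of the nuclear genes on the lower side (log2 fold change -0.18, SE 0.08, adjusted p = 0.520). Atp5d, the delta subunit, was at 261 and 237 TPM in EtOH and 280 and 258 TPM in OHT (log2 fold change 0.11, SE 0.10).

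The c subunit of the proton ring is made from 3 genes, Atp5g1, Atp5g2 and Atp5g3, which encode the same mature protein behind different import signals. Atp5g1 read 690 and 664 TPM in EtOH and 668 and 582 TPM in OHT (log2 fold change -0.12, SE 0.10). Atp5g2 read 490 and 462 TPM in EtOH and 518 and 501 TPM in OHT (log2 fold change 0.10, SE 0.09). Atp5g3, the most abundant, read 988 and 951 TPM in EtOH and 956 and 856 TPM in OHT (log2 fold change -0.10, SE 0.09). Atp5g2 read above both controls in both OHT libraries, and the other genes of the ring did not. The share of Atp5g2 in the sum of the 3 was 22.6% and 22.2% in EtOH and 24.2% and 25.8% in OHT, without overlap. The sum itself was 2168 and 2077 TPM in EtOH and 2142 and 1940 TPM in OHT, so the groups overlapped. The pseudogenes Gm10175 and Gm10231 match 100% of Atp5g2 at 100% identity and have no row of their own. How reads shared with them were assigned is not given, so the Atp5g2 levels and share may include such reads.

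The other genes of complex V, most of them for the peripheral stalk and the membrane part, followed mostly the pattern of high OHT replicate 1 and low OHT replicate 2. Atp5l, subunit g, read 791 and 761 TPM in EtOH and 1008 and 777 TPM in OHT (log2 fold change 0.19, SE 0.13). Atp5mpl, a small membrane proteolipid, read 470 and 438 TPM in EtOH and 573 and 443 TPM in OHT. In Atp5l and Atp5mpl, OHT replicate 1 was the highest library and OHT replicate 2 lay within the control range. Atp5j, the coupling factor of the stalk, read 263 and 247 TPM in EtOH and 245 and 231 TPM in OHT. With Atp5c1 it made up the 2 nuclear subunit genes of 40 that were lower in both OHT libraries, against 19.4% of all genes. The remaining 7 genes were Atp5e, Atp5h, Atp5j2, Atp5k, Atp5md, Atp5o and Atp5pb. Each had OHT replicate 1 above both controls and OHT replicate 2 below both. Their log2 fold changes lay between -0.15 and 0.11. Over the 17 genes of the complex tested the median was 0.03, and over the 15 of complex IV it was 0.10.

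**Figure D2:**
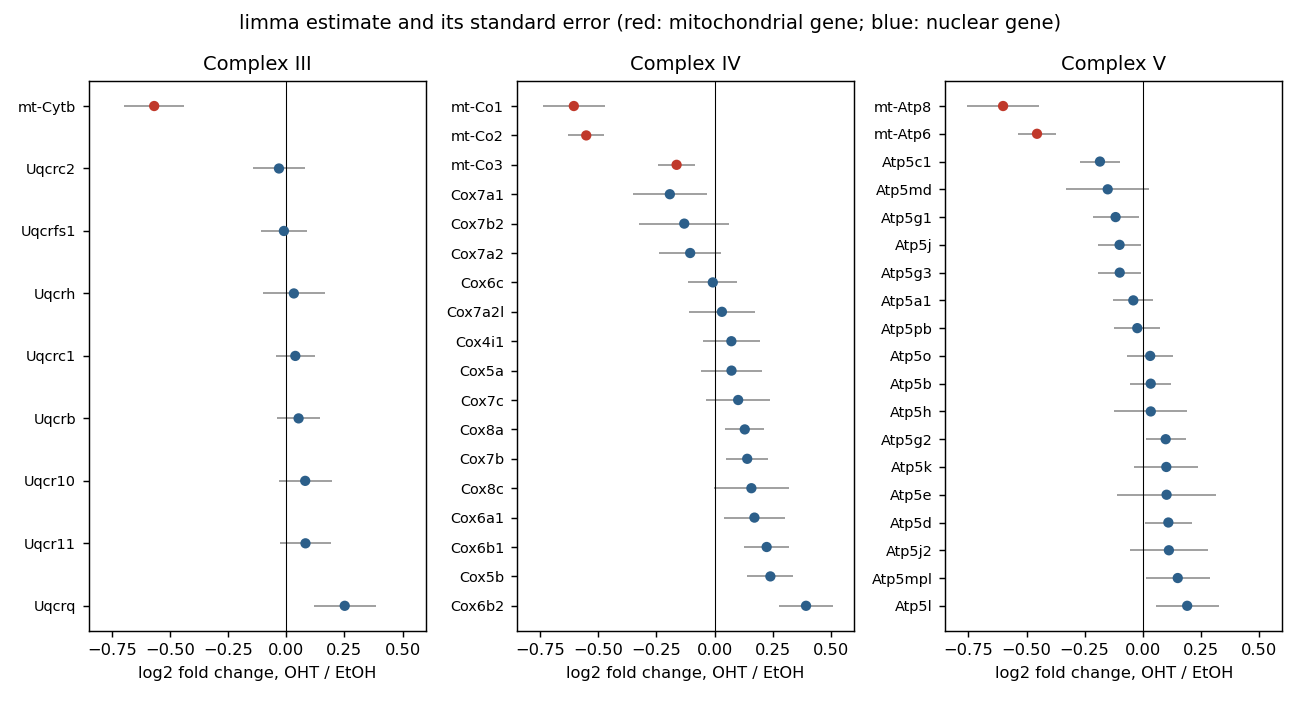
Log2 fold change of OHT over EtOH for each subunit gene tested, by complex, with limma's standard error as bars and colour for the genome of origin. The mitochondrial genes lie between -0.60 and -0.16, and the nuclear genes lie between -0.19 and 0.39.

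Per complex, the gap between the genomes had a similar size. The mitochondrial median minus the nuclear median of the log2 fold change was -0.61 in complex III, -0.65 in complex IV and -0.56 in complex V. For complex III it came to -0.91 and -0.36 in the OHT libraries, against -0.03 and 0.03 in the EtOH libraries. In complex IV the same libraries gave -0.75 and -0.40, against -0.03 and 0.03, and in complex V -0.79 and -0.27, against -0.04 and 0.04. The gap was thus outside the control range in both OHT libraries for each complex, and it was larger in replicate 1. These values are medians over genes chosen by name and carry no test.

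**Figure D3:**
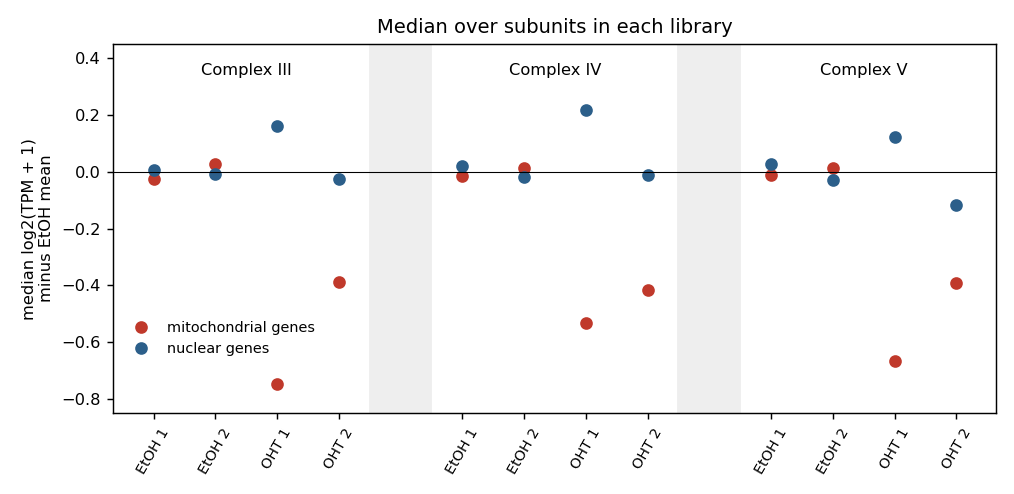
Median over the subunit genes of log2(TPM + 1) minus the EtOH mean, for each library, complex and genome of origin. The mitochondrial points lie below 0 in both OHT libraries, and the nuclear points lie above 0 in the first OHT library and slightly below 0 in the second.

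Summed levels show the same in TPM. Complex IV had 15729 and 16094 TPM from mitochondrial genes in EtOH and 11208 and 12023 TPM in OHT, with 6869 and 6715 TPM from nuclear genes in EtOH and 8024 and 6605 TPM in OHT. The ratio of the sums was 2.29 and 2.40 in EtOH and 1.40 and 1.82 in OHT. For complex III the ratio was 0.960 and 1.02 in EtOH and 0.518 and 0.768 in OHT, and for complex V it was 1.25 and 1.31 in EtOH and 0.749 and 1.03 in OHT. In each complex both OHT ratios lay below both EtOH ratios. All mitochondrially encoded genes of the table made up 4.26% and 4.35% of TPM in EtOH and 2.93% and 3.38% in OHT.

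The nuclear side depended on the OHT library. OHT replicate 1 was above both controls for 31 of the 40 nuclear genes, against 29.8% of all genes, and below both for 6, against 56.3%. OHT replicate 2 was above both controls for 12, against 61.9% of all genes, and below both for 23, against 26.3%. The nuclear median stood at 0.16 for the first OHT library and at -0.06 for the second. The subunit genes are short, and the shorter ones carried this: the 31 under 1000 bases had medians of 0.21 and -0.06, and the 9 longer ones 0.02 and 0.01. Over all tested genes under 1000 bases, the medians were 0.09 and -0.06, and over longer genes -0.11 and 0.16. Of the 1041 tested genes under 1000 bases, OHT replicate 1 was above both controls for 556 and below both for 342. For OHT replicate 2 these counts were 322 and 544. Among the 31 short subunit genes they were 26 and 2 for OHT replicate 1, and 7 and 19 for OHT replicate 2. Across the 40 genes, the difference between the OHT replicates ran with log2 length with Pearson r = -0.50 and Spearman rho = -0.45, and that between the EtOH replicates with -0.28 and -0.27. These are descriptions across genes that share libraries. Without OHT replicate 1, 14 subunit genes passed the adjusted threshold, 13 lower and 1 higher, where 24.6% of all genes did. Without OHT replicate 2, 24 passed, 6 lower and 18 higher, where 20.6% of all genes did. The 6 mitochondrial genes were lower both times, with the lone OHT library assumed to vary like the EtOH pair. Except for Cox6b2, the calls on nuclear genes depended on which OHT library stayed. Atp5e and Atp5h were lower without OHT replicate 1 and higher without OHT replicate 2. Cox6b2 was higher both times (log2 fold change 0.364 and 0.422, in the same order). The calls on subunit genes, mitochondrial ones included, did not recur when an EtOH library was left out instead. The mitochondrial genes were still lower there, mt-Co3 the least (log2 fold change -0.176 without EtOH replicate 1, -0.151 without EtOH replicate 2). What set the libraries apart was not tested.

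**Figure D4:**
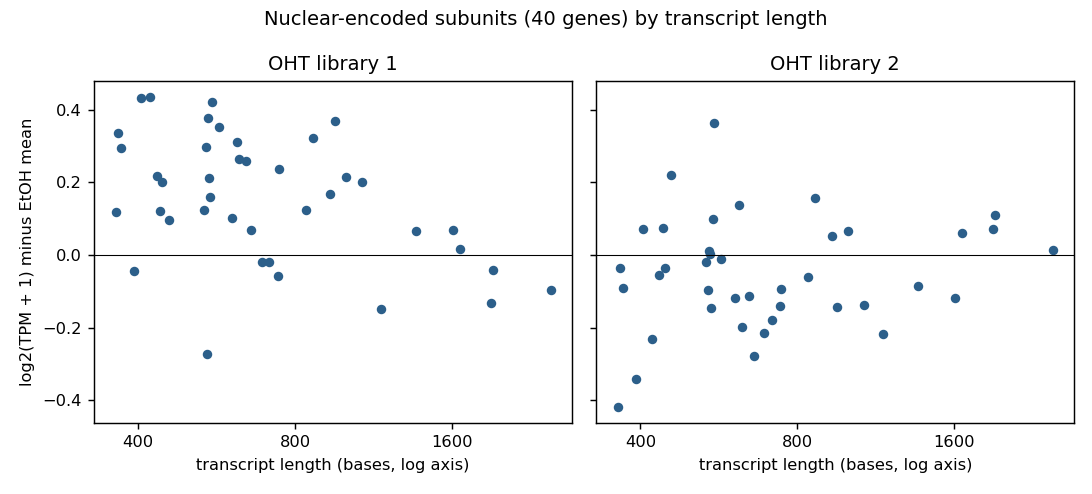
Log2(TPM + 1) minus the EtOH mean in each OHT library against transcript length in bases (log axis) for the 40 nuclear subunit genes tested. Short genes lie mostly above 0 in OHT replicate 1 (median 0.21 under 1000 bases) and slightly below 0 in OHT replicate 2 (median -0.06).

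With each library's smooth trend over transcript length and GC content removed, 5 of the 6 mitochondrial genes still read lower and mt-Atp8 read higher. The log2 fold changes were then -0.47 for mt-Co1, -0.40 for mt-Cytb, -0.39 for mt-Co2, -0.25 for mt-Atp6, -0.005 for mt-Co3 and 0.29 for mt-Atp8. The mitochondrial median became -0.32, and none of the 6 was among the 167 genes (1.39% of those tested) that then passed the adjusted threshold. mt-Atp8 lies at the edge of that trend: of the 12016 genes with a length, 5 were as short or shorter, itself included, and none had a lower GC content. The gap became -0.48 in complex III, -0.49 in complex IV and 0.006 in complex V, so the direction for complex V rested on mt-Atp8 and on this choice.

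**Figure D5:**
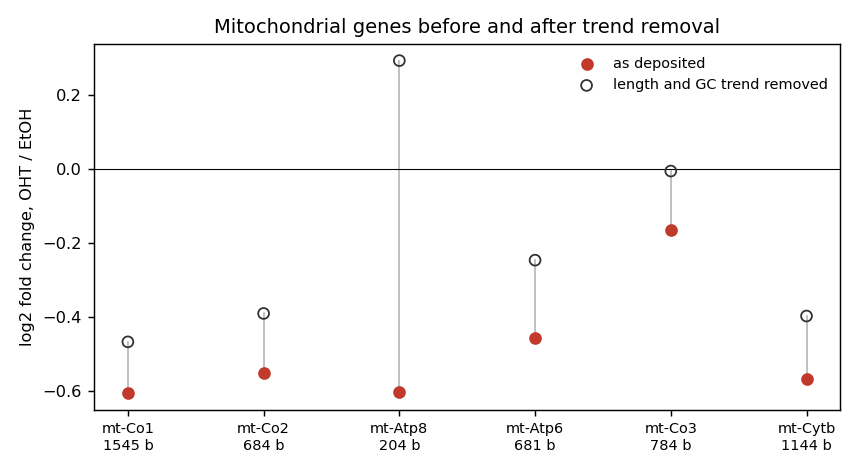
Log2 fold change of the 6 mitochondrially encoded genes as deposited and with each library's trend over transcript length and GC content removed. The values move towards 0 for all 6, and mt-Atp8 crosses it, from -0.60 to 0.29.

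Genes of the same machinery outside the name rule were read beside them. Cyc1, the nuclear cytochrome c1 of complex III, read 237 and 220 TPM in EtOH and 195 and 210 TPM in OHT, lower in both (log2 fold change -0.18, SE 0.10, adjusted p = 0.603). Ndufa4, a subunit now assigned to complex IV, read 618 and 600 TPM in EtOH and 684 and 569 TPM in OHT. Cycs, the carrier cytochrome c itself, read 44.1 and 43.7 TPM in EtOH and 45.6 and 39.1 TPM in OHT. The OHT values of these last genes enclosed the controls. In complex I, which holds the same split, the 7 mt-Nd genes had a median log2 fold change of -0.54, with 6 of 7 lower in both OHT libraries. The 38 Nduf genes tested had a median of 0.03, with 5 lower and 6 higher in both, against 19.4% and 23.1% of all genes.

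The assembly factors of complexes III to V, which insert haem, copper and subunits, gave 32 genes tested of 33 listed, with a median log2 fold change of -0.01. Of these, 6 were lower and 5 higher in both OHT libraries, where 19.4% and 23.1% of all genes were, and none passed the adjusted threshold. Tmem242, an assembly factor of the ATP synthase ring, read 37.8 and 37.96 TPM in EtOH and 28.6 and 28.2 TPM in OHT (log2 fold change -0.40, SE 0.12, adjusted p = 0.362). Pet117, of complex IV, read 5.90 and 5.48 TPM in EtOH and 9.02 and 7.44 TPM in OHT (log2 fold change 0.46, SE 0.18, adjusted p = 0.470). They were the only assembly genes with an unadjusted p under 0.05. Atpaf1 had a log2 fold change of -0.35 and Cox19 of -0.32, while Fmc1 had 0.33 and Cox17 0.27.

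Lrpprc and Slirp form a complex that binds and stabilises mitochondrial messages. Slirp read 160 and 158 TPM in EtOH and 134 and 95.6 TPM in OHT, lower in both (log2 fold change -0.49, SE 0.17, adjusted p = 0.410). Lrpprc read 37.5 and 41.2 TPM in EtOH and 36.1 and 42.2 TPM in OHT, around the controls. The part of Slirp in the mitochondrial levels was not tested.

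The promoters of the nuclear genes were searched on both strands for the letters GCGCATGCG, a form of the site of NRF-1, and CCGGAAG, a form of the ETS site. RefSeq promoters on GRCm38, from 250 bases before to 50 after the start, matched 33 of the 43 nuclear subunit genes. The first motif was in 6 of the 33 (18.2%), against 1.95% of 27025 genes, and the second in 11 (33.3%), against 9.93%. A match is letters in a window and not a shown binding site, and these RNA data do not bear on binding. For Cox6a1, at chr5:115349091-115349140, and Atp5g2, at chr15:102671060-102671109, the windows around the match read as follows, 5′ to 3′ on the minus strand, with the match in capitals. Cox6a1 had OHT replicate 1 above the controls and OHT replicate 2 at the level of the lower control (470.7 against 471.1 TPM). Atp5g2 was above the controls in both OHT libraries:
Cox6a1: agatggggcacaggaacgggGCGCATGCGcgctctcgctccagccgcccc
Atp5g2: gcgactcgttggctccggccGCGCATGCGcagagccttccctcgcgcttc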

How the data were processed

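Poly(A) RNA of 4 libraries was measured. The authors' deposited values are TPM per gene. The submitters' processing notes name Trim Galore, Salmon and the build GRCm38 (mm10). No source used here gives the annotation release, the order of steps or bias settings, and TPM keeps no depth, so depth is unknown. A further 2 columns of values match no sample used here and were not used. Genes were matched by identifier to GENCODE M21 (22213 of 22266), which gave positions and transcript lengths.

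Values were analysed as log2(TPM + 1), so fold changes understate those of low genes. Genes averaging 1 TPM or more were tested in limma 3.58.1 (R 4.3.3; two-sided, with a mean-variance trend and 2 residual degrees of freedom, Benjamini-Hochberg over 12029 genes, threshold 0.05), with no covariate. The script was tested on simulated data. Two-sided exact permutation of 2 against 2 cannot go below p = 0.333, so none was run. Near-identical copies were found with blastn 2.17.0. The members, lists and tests were chosen with earlier results of these data known. Genes named with values were all mitochondrial members, the 4 most abundant nuclear genes per complex, in each direction at most 4 with the lowest p, isoform and c-ring genes, and up to 3 assembly genes per direction. Uqcrc1 was added after its values were seen. Alternatives changed the pseudocount, filter, scaling, moderation, length and GC trend, copies, block and libraries.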

Additional observations from a re-analysis of the deposited data

How the results depend on the processing

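The count of 5 genes past the threshold became 0 with no filter on low values (2228 genes then had an unadjusted limma p under 0.05), and 3 each with median-of-ratios scaling, quantile normalization or no mean-variance trend. It became 167 with the length and GC trend removed (91 higher, 76 lower). None of these counts included a subunit gene. With a replicate block it was 474, including mt-Atp6, mt-Atp8, mt-Co1, mt-Co2 and mt-Cytb, all lower. Same-numbered libraries' deviations correlated at 0.29 across genes, but the labels tie no number to a shared culture or day, and there are only 2 pairs.

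Leaving out each library in turn gave 34 to 2957 genes. Without OHT replicate 1 there were 2957 (2222 higher, 735 lower; 13 subunit genes lower and 1 higher), and without OHT replicate 2 there were 2478 (728 higher, 1750 lower; 6 subunit genes lower and 18 higher), with all 6 mitochondrial genes lower each time. The lone OHT library is there assumed to vary like the EtOH pair. With EtOH replicate 1 or 2 left out instead, the mitochondrial genes were again lower, but the calls on subunit genes did not recur. The gap ranged from -0.91 to -0.36 in complex III, from -0.75 to -0.40 in complex IV and from -0.79 to -0.27 in complex V. With the trend removed, the gap of complex V was 0.006.

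The mitochondrial genes read lower in each setting run, except mt-Atp8 with the trend removed. Signs of single genes turned as follows. With the trend removed, the log2 fold change was 0.29 for mt-Atp8, -0.032 for Uqcrc1, 0.024 for Uqcrc2, 0.033 for Uqcrfs1, 0.093 for Cox7b2, 0.12 for Atp5md. With median-of-ratios scaling it was -0.005 for Uqcrh, -0.005 for Cox7a2l, -0.004 for Atp5b, -0.004 for Atp5h, -0.006 for Atp5o. With quantile normalization it was 0.036 for Uqcrc2, 0.043 for Uqcrfs1, 0.044 for Cox6c, -0.026 for Atp5b, 0.008 for Atp5pb. Leaving out each library in turn gave ranges of -0.096 to 0.014 for Atp5a1, -0.043 to 0.11 for Atp5b, -0.23 to 0.44 for Atp5e, -0.20 to 0.27 for Atp5h, -0.14 to 0.37 for Atp5j2, -0.092 to 0.29 for Atp5k, -0.42 to 0.12 for Atp5md, -0.035 to 0.34 for Atp5mpl, -0.060 to 0.12 for Atp5o, -0.12 to 0.070 for Atp5pb, -0.093 to 0.24 for Cox4i1, -0.11 to 0.26 for Cox5a, -0.011 to 0.35 for Cox6a1, -0.12 to 0.10 for Cox6c, -0.28 to 0.070 for Cox7a2, -0.14 to 0.20 for Cox7a2l, -0.27 to 0.011 for Cox7b2, -0.096 to 0.30 for Cox7c, -0.055 to 0.22 for Uqcr10, -0.035 to 0.20 for Uqcr11, -0.019 to 0.12 for Uqcrb, -0.13 to 0.071 for Uqcrc2, -0.087 to 0.066 for Uqcrfs1, -0.15 to 0.21 for Uqcrh. None of these genes passed the threshold in the fit of all 4 libraries, and the cause was not tested. Depth is unknown, so counting error could not be separated from other spread.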
